A study of Homo sapiens with 12 samples.

Results

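Nuclear genes that encode subunits of the respiratory chain and of ATP synthase were followed in 2 human neuroblastoma cell lines treated with Erastin. Members were chosen by gene name (names of the NDUFA, NDUFB, NDUFC, NDUFS and NDUFV series, SDHA to SDHD, 8 UQCR genes, COX4 to COX8 and the ATP5F1, ATP5M and ATP5P series, with pseudogenes removed), which gave 82 genes of 58735 gene rows. Of these, 37 belong by name to complex I, 4 to complex II, 8 to complex III, 14 to complex IV and 19 to complex V. The name pattern leaves out COX4I1, COX4I2, NDUFAB1, CYC1, CYCS, COX7A2L, NDUFA4L2, UQCRHL and ATP5IF1, which are described apart from the members, and it keeps NDUFA4 with complex I although that protein is now assigned to cytochrome c oxidase.

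RNA-seq read counts per gene came from KELLY cells (MYCN amplified) and SK-N-AS cells (MYCN not amplified), each with 3 DMSO and 3 Erastin samples collected at 24 h. Erastin, which blocks cystine uptake through the transporter SLC7A11 and so triggers ferroptosis, was given at 1 µM to KELLY and at 2 µM to SK-N-AS, so line and dose cannot be told apart. Each condition is represented by 1 cell line, the replicates were wells seeded from it, and p-values therefore measure the spread between wells. Total counts lay between 24169796 and 29835670 per sample, and the 82 members took 0.62% to 0.828% of them.

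The respiratory chain passes electrons from NADH (complex I) and succinate (complex II) through ubiquinone to complex III, cytochrome c and complex IV, and the proton gradient that results drives ATP synthase (complex V). A small number of its subunits are encoded in mitochondrial DNA and the rest in the nucleus. Ferroptosis is death by lipid peroxidation, and mitochondria are one source of the reactive oxygen that can feed it.

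Promoters of nuclear respiratory genes are known for sites of the factors NRF1, GABPA (of the ETS family) and YY1. RefSeq windows (GRCh38.p14) from 250 bases before to 50 bases after the start were matched for 58 of the 82 members. The letters GCGCATGCG (NRF1), on either strand, were in 8 of the 58 windows (13.8%) and in 2.36% of the 22199 windows of protein-coding genes. CCGGAAG (ETS) was in 17 of 58 (29.3%) against 12.8%, and AAGATGGCG (YY1) in 7 of 58 (12.1%) against 2.41%. At least 1 of the 3 was present in 27 of 58 members (46.6%) and in 16.4% of the protein-coding windows. The 180 bases before the start of 4 members are given below, because these 4 differ in their letters and in their level between the lines: COX5B and ATP5MD were lower in KELLY, UQCR10 was higher and ATP5F1C was not called. Capitals mark matches to the letters searched, cut off where a match runs past the start.
COX5B, chr2:97645882-97646061, plus strand: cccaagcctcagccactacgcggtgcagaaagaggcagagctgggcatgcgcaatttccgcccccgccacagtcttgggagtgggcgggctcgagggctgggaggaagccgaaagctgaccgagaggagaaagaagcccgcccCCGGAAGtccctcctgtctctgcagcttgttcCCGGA
ATP5MD, chr10:103396476-103396655, minus strand: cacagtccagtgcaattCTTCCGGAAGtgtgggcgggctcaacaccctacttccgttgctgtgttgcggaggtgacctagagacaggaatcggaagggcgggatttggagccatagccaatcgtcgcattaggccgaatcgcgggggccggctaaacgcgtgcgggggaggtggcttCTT
UQCR10, chr22:29767189-29767368, plus strand: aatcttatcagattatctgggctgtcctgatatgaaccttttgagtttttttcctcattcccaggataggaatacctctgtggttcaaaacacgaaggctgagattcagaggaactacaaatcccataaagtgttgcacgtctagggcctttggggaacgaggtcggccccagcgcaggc
ATP5F1C, chr10:7787997-7788176, plus strand: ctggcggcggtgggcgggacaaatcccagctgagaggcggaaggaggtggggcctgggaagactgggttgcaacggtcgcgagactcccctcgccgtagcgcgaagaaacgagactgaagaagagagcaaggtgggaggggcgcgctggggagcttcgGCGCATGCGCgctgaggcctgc
COX5B and ATP5MD hold the ETS letters, ATP5F1C holds the NRF1 letters and UQCR10 holds none of the 3. A match is a stretch of letters and not evidence of binding.

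Before the results, 2 KELLY libraries stood apart. A gene's log2 level relative to the mean of its line rose or fell with the GC content of its transcript in most libraries, and the strongest trends in KELLY ran in opposite directions in DMSO replicate 1 (Spearman's rho -0.79 over 14240 genes) and Erastin replicate 1 (0.84). The same 2 libraries held hemoglobin reads, with 208 HBB counts in DMSO replicate 1 and 91 in Erastin replicate 1 against at most 3 in the other KELLY libraries (40 in SK-N-AS Erastin replicate 1). In SK-N-AS the trends ran from -0.69 to 0.71. Results are therefore given also with a GC offset. In it, each library's smooth trend with GC content, relative to the mean of its line, was removed inside the fit. KELLY results are given also without both of these libraries. Markers of the lines matched their labels, with all 9 adrenergic neuroblastoma markers called higher in KELLY and all 8 mesenchymal markers called higher in SK-N-AS. Of 9 blood cell markers, CD3E and LYZ had no count in any library, while PTPRC was between 454 and 620 CPM (counts scaled to a common library size with TMM factors) in SK-N-AS and had no count in KELLY.

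Most members were abundant. In TPM, which scales counts by transcript length and can be compared between genes, the median over the 82 members was 112 in KELLY DMSO samples and 104 in SK-N-AS DMSO samples, and 71 members reached 10 TPM in each. ATP5F1B, the catalytic beta subunit of ATP synthase, had the highest level, at 1743 ± 38.2 TPM in KELLY and 1167 ± 31.1 TPM in SK-N-AS (SD, n = 3 DMSO samples). Complex I was led by NDUFS5 at 826 ± 79.7 TPM in KELLY and 641 ± 17.9 TPM in SK-N-AS. UQCRH, the hinge protein of complex III, had 555 ± 159 and 801 ± 42.0 TPM, and its KELLY values spread over the whole range from 382 to 694 TPM. COX7C led complex IV with 530 ± 53.0 TPM in KELLY and 577 ± 60.9 TPM in SK-N-AS, values that overlap between the lines. SDHC, a membrane anchor of complex II, led that complex with 282 ± 16.9 and 320 ± 23.3 TPM. TPM here divides by the canonical transcript of GENCODE 44, which is long for ATP5F1A (5761 bases) and NDUFS1 (11660 bases), so that their TPM values are low beside their counts.

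The tissue-specific isoforms were close to absent in both lines. COX6A2, the form of heart and skeletal muscle, and COX7B2 had no count in any of the 12 libraries, and a count of 0 allows up to 3 counts, or 0.102 to 0.123 CPM. COX7A1, the muscle form of COX7A, had 0 to 9 counts per library, COX6B2 0 to 11 and COX8C 0 to 2. Their ubiquitous partners were at 78.1 ± 9.93 CPM in KELLY and 98.0 ± 9.14 CPM in SK-N-AS for COX7A2, at 64.8 ± 37.6 and 99.6 ± 15.1 CPM for COX6B1, at 22.7 ± 10.1 and 34.1 ± 4.73 CPM for COX6A1 and at 73.2 ± 28.4 and 60.8 ± 11.7 CPM for COX8A (DMSO, SD, n = 3). None of these 4 partners was called between the lines as counted, and COX6A1 and COX7A2 were called lower in KELLY with the GC offset. COX7B, the partner of COX7B2, was called higher in KELLY (log2 difference 0.50, edgeR adjusted p = 0.0156). ATP5MGL and the readthrough gene ATP5MF-PTCD1 had at most 3 counts in a library.

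Some members had few counts where other annotated genes lie over their exons. In its default setting HTSeq leaves out a read that falls on more than 1 gene, and the setting used here is not given in the sources used. In GENCODE 44, exons of other genes on the same strand cover 90% of the canonical transcript of NDUFV2, a core subunit of complex I. They cover 83.9% of NDUFA13 and 77.9% of NDUFA7. In DMSO samples NDUFV2 had 1.32 ± 0.254 CPM in KELLY and 1.09 ± 0.688 CPM in SK-N-AS. NDUFA7 was at 0.348 ± 0.126 and 0.969 ± 0.269 CPM. Counting genes on either strand, 9 of the 82 members were covered over at least 50% of their length, SDHA (69.4%) and ATP5PO (63.8%) among them. A further 46 were not covered at all. Pseudogenes can split reads in the same way, and named pseudogene rows held over 5% of the member's own counts for NDUFV2 (64.3%), SDHA (25.9%) and COX6A1 (15.1%). The part of this overlap in the levels was not tested, since the release 29 annotation that the counts used was not analysed here.

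The first comparison asked whether Erastin moved the nuclear subunits within each line. As a check of treatment, genes of the amino acid and integrated stress response were read in the same fits. In SK-N-AS 5 of 6 rose, with log2 differences of 4.56 for the glutathione-degrading enzyme CHAC1, 2.01 for the antiporter subunit SLC7A11, 1.51 for the transcription factor ATF4, 2.28 for asparagine synthetase ASNS and 1.06 for TRIB3 (edgeR, adjusted p at most 0.00625). In KELLY none of the 6 passed the adjusted threshold, with a median log2 difference of 1.21, and 4 of them did with the GC offset. The median of the 6 genes lay between 1.06 and 1.202 in the KELLY Erastin samples and between 1.59 and 1.87 in the SK-N-AS Erastin samples, on the log2 scale relative to the DMSO mean of the line.

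**Figure D1:**
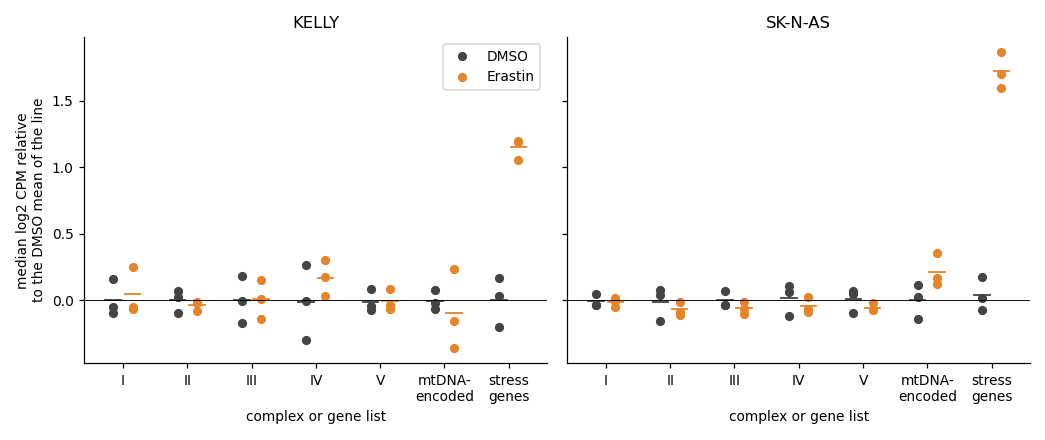
Median log2 CPM of each complex, of the 13 mitochondrially encoded subunits and of the 6 stress genes in each sample, relative to the DMSO mean of the line (y axis, log2 units), with DMSO samples in grey, Erastin samples in orange and a line at each mean. The stress genes of every Erastin sample lie above 1 while the 5 complexes stay between -0.30 and 0.31.

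No member passed the threshold in KELLY. Of 74 members tested, 0 had an adjusted p under 0.05 in edgeR and 0 an unadjusted p of at most 0.05, beside 0.00615% and 2.64% of all 16258 genes tested. DESeq2 and limma-voom also called 0 members, with 0 at an unadjusted p of at most 0.05 in each. The median log2 difference of the members was 0.02, that of all genes 0.01, and members ran from -0.48 to 0.80. By complex the medians were 0.03 for I, -0.03 for II, 0.02 for III, 0.16 for IV and -0.02 for V. Because CPM is a share of each library, a change of RNA per cell that touched all genes alike could not be seen, and fewer cells of a type and less RNA per cell cannot be told apart.

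The smallest p in KELLY belonged to ATP5F1E, the epsilon subunit in the central stalk of ATP synthase, whose values were 216, 145 and 115 CPM in DMSO and 122, 111 and 107 CPM in Erastin. The DMSO samples were spread widely and the groups overlapped. Its log2 difference was -0.48 (95% interval -1.04 to 0.07, adjusted p = 0.77), and -0.16 with the GC offset. In complex I the smallest p among positive differences was that of NDUFA2 (0.52, adjusted p = 0.77), at 11.7, 19.4 and 16.8 CPM in DMSO and 30.8, 17.1 and 20.6 CPM in Erastin, again with overlap. NDUFA4 had the smallest among the negative ones (-0.23). In the other complexes the smallest p belonged to SDHD (-0.29), UQCRH (0.30), UQCRQ (-0.16), COX7B (-0.10) and ATP5F1D (0.31) in their direction.

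Several of the highest estimates in KELLY rested on the libraries numbered 1. COX5B, a matrix-side subunit of complex IV, read 12.1, 40.4 and 23.8 CPM in DMSO and 60.4, 23.3 and 30.5 CPM in Erastin. Replicate 1 was the lowest of the DMSO samples and the highest of the Erastin samples. The log2 difference of 0.59 (95% interval -0.54 to 1.71) became -0.25 without both libraries. COX8A behaved alike, at 47.4, 104 and 68.7 CPM in DMSO and 206, 61.8 and 91.0 CPM in Erastin. Its difference of 0.71 (-0.36 to 1.79) became -0.17 without them. COX6A1, at 0.63, became -0.07.

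None of the core subunits passed in KELLY, and their intervals were wide. NDUFV1, which binds the flavin that takes electrons from NADH, differed by 0.38 (95% interval -0.27 to 1.02) and by 0.0034 with the GC offset. NDUFS1, the large iron-sulfur subunit of complex I, differed by -0.23 (-0.63 to 0.16). SDHA, the flavoprotein of succinate dehydrogenase, differed by 0.19 and its iron-sulfur partner SDHB by -0.03. The Rieske protein UQCRFS1 differed by -0.05 and the core protein UQCRC1 by -0.04. COX5A, listed with them although it is an accessory subunit of complex IV, differed by 0.16 (-0.26 to 0.57). ATP5F1A and ATP5F1B, the alpha and beta subunits that form the catalytic head, differed by -0.04 and -0.05. Of the 74 intervals, 34 lay within a 1.5-fold change in either direction and 55 within a 2-fold change.

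In KELLY every Erastin sample lay above every DMSO sample for 1 member and below for 2, beside 4.2% and 4.32% of all genes. The member above was ATP5PD, a peripheral stalk subunit, at 41.7, 46.3 and 44.1 CPM in DMSO and 51.1, 53.2 and 47.4 CPM in Erastin. Those below were NDUFA9, at 37.1, 37.5 and 36.9 CPM in DMSO and 35.7, 33.8 and 34.5 CPM in Erastin, and the low-count NDUFV2. These were named after their values were seen. None had an unadjusted p of at most 0.05.

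The differences of the members in KELLY followed GC content. Across the 74 members, which share the same 6 libraries, Spearman's rho between log2 difference and the GC content of the transcript was 0.67, and with the GC offset it was -0.03. Because the offset removes each library's GC trend, the second value is low by design. With the offset 5 members had an unadjusted p of at most 0.05, of which ATP5PD and NDUFA2 had positive and NDUFB2, NDUFS8 and UQCRC1 negative differences, beside 7.49% of all genes. None was called, beside 0.197% of all genes. Their log2 differences ran from -0.43 for NDUFB2 to 0.42 for NDUFA2, with adjusted p of at least 0.618. Without both libraries numbered 1, again 0 of 74 were called and the median of the members was -0.10.

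**Figure D2:**
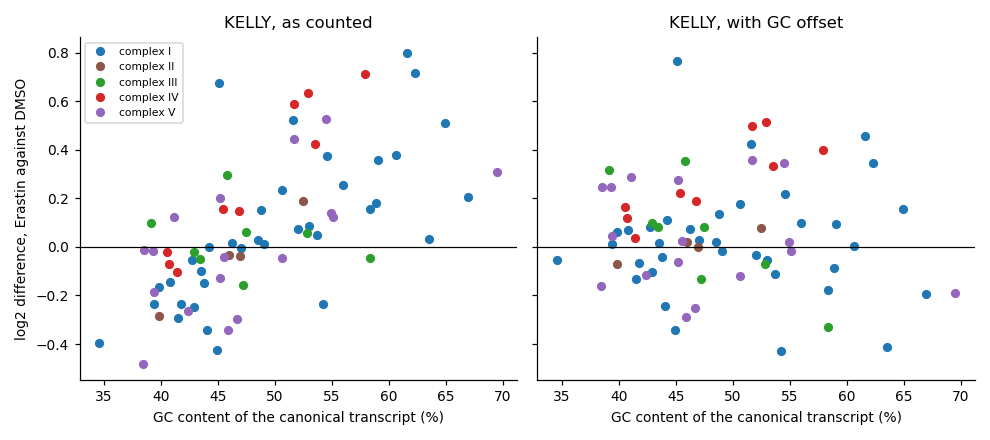
Log2 difference of Erastin against DMSO in KELLY (y axis) for the 74 members by GC content of the canonical transcript in percent (x axis), coloured by complex, as counted on the left and with the GC offset on the right. The upward trend on the left (rho 0.67) is absent on the right (rho -0.03), where the offset removes each library's GC trend by design.

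SK-N-AS was measured more tightly, and here too no member passed the threshold. Of 75 members, 0 had an adjusted p under 0.05 and 0 an unadjusted p of at most 0.05 in edgeR, DESeq2 and limma-voom, beside 0.659% and 8.77% of all 16095 genes in edgeR. Members ran from -0.26 to 0.10, with a median of -0.04 where all genes had -0.01. Of the 75 intervals, 72 lay within a 1.5-fold change. The typical standard error of a member was 0.10 on the log2 scale, against 0.20 in KELLY.

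Of the SK-N-AS differences 47 were negative and 28 positive, where all genes had 8430 negative and 7665 positive. In complex V 16 of 17 were negative, with a median of -0.06 and a lowest value of -0.20. In complex I 16 of 37 were negative, in complex II 3 of 4, in complex III 5 of 8 and in complex IV 7 of 9. Per sample, the median of the 17 complex V members lay at -0.10, 0.07 and 0.05 in DMSO and at -0.07, -0.02 and -0.07 in Erastin, so that DMSO replicate 1 was below the Erastin samples. Members of 1 complex share their libraries and are no replicates of the treatment.

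COX5B had the smallest p in SK-N-AS. It read 62, 64.3 and 44 CPM in DMSO and 43.5, 53.1 and 44.4 CPM in Erastin, so that DMSO replicate 3 lay among the Erastin samples. The log2 difference was -0.26 (95% interval -0.56 to 0.04, adjusted p = 0.654). ATP5MC3, which encodes the c-ring protein of ATP synthase, read 126, 146 and 130 CPM in DMSO and 119, 125 and 116 CPM in Erastin, a log2 difference of -0.15 with adjusted p = 0.691. In complex I NDUFS8, an iron-sulfur subunit on the path to ubiquinone, differed by -0.14 and had no overlap, with 72.2 to 75.6 CPM in DMSO and 65.3 to 68.8 CPM in Erastin. UQCRFS1 was the third member without overlap, from 76.7 to 79.6 CPM in DMSO and from 72.1 to 74.1 CPM in Erastin, a log2 difference of -0.09. In all 3 members lay below without overlap and 0 above, beside 7.8% and 6.95% of all genes.

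The core subunits of SK-N-AS stayed within narrow limits. NDUFV1 differed by -0.03 (95% interval -0.25 to 0.19), NDUFS1 by 0.01 (-0.17 to 0.18), SDHA by -0.08 (-0.33 to 0.16) and SDHB by -0.10 (-0.32 to 0.13). For UQCRC1 the difference was -0.13 (-0.34 to 0.09) and for the accessory subunit COX5A -0.03 (-0.22 to 0.16). ATP5F1A and ATP5F1B differed by -0.05 and -0.04, with intervals from -0.21 to 0.11 and from -0.20 to 0.11. The ubiquitous isoforms COX6A1, COX6B1, COX7A2, COX7B and COX8A differed by 0.05, -0.10, -0.05, -0.08 and -0.08. Among the positive differences the smallest p in each complex belonged to NDUFV3 (0.08), SDHC (0.03), UQCRC2 (0.02), COX6C (0.06) and ATP5MG (0.0035).

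With the GC offset 4 SK-N-AS members reached an unadjusted p of 0.05 or less, all of them negative (COX5B -0.26, ATP5MD -0.21, NDUFS6 -0.18 and UQCRC1 -0.10), beside 20.7% of all genes. None was called, beside 6.75% of all genes, and the smallest adjusted p was 0.104 for COX5B. Leaving out DMSO replicate 3, which lay at the low end of the GC trend of this line, gave 2 calls of 75 (NDUFB7 and COX5B, both lower with Erastin), beside 5.2% of all genes in that fit.

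**Figure D3:**
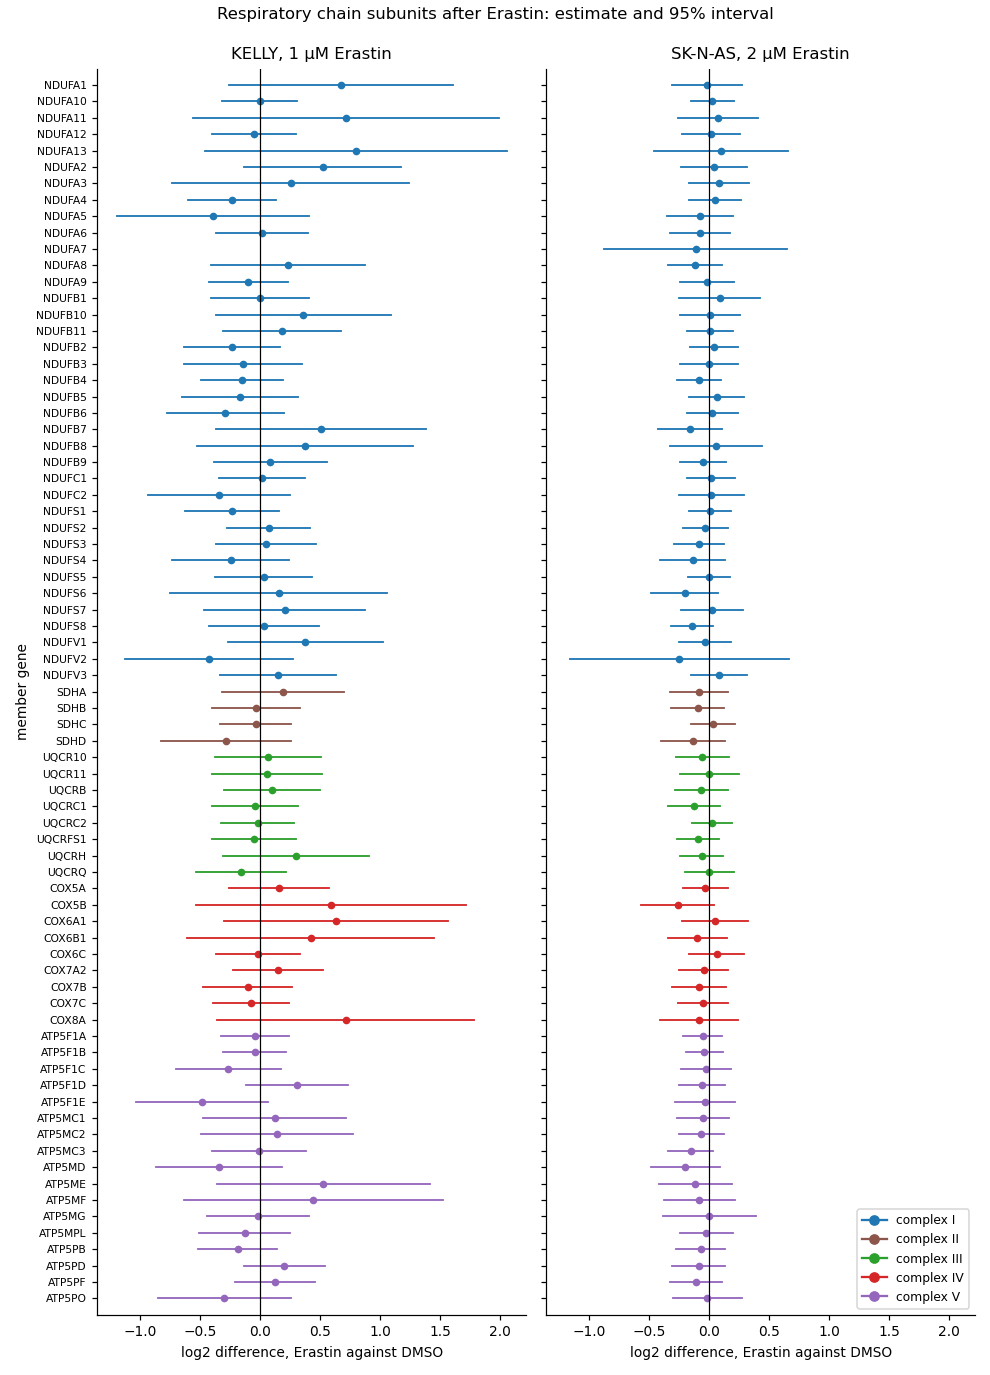
Log2 difference of Erastin against DMSO (x axis) for each member tested (y axis, ordered by complex), with points for the estimate and lines for the 95% interval, in KELLY on the left and SK-N-AS on the right. The intervals cross 0 for all members in both lines, and those of SK-N-AS are the narrower ones.

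A direct test of the difference between the responses of the lines called none of 75 members at an adjusted p under 0.05, beside 0.00549% of all 18212 genes, and none at an unadjusted p of at most 0.05, beside 4.23%. DESeq2 and limma-voom called 0 as well. The 5 members with the smallest p were ATP5F1D (SK-N-AS response minus KELLY response -0.37), ATP5PD (-0.29), ATP5F1E (0.44), NDUFB7 (-0.67) and COX5B (-0.85), with adjusted p = 0.811 for each. The COX5B value turned to 0.10 without the 4 libraries numbered 1. Since the lines had different doses, the comparison is one of line and dose together.

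Genes around the members were read in the same fits. Of the subunits and paralogs outside the name pattern, NDUFA4L2, a paralog of NDUFA4 induced in hypoxia, was the 1 gene called, higher after treatment. SK-N-AS libraries held 6, 2 and 0 counts of it in DMSO and 26, 43 and 15 counts in Erastin, a log2 difference of 3.27 (SE 0.65, adjusted p = 0.0456). In KELLY, where it was below the filter, it had 0, 4 and 2 counts in DMSO and 24, 17 and 8 in Erastin. All 3 Erastin samples lay above the DMSO samples in both lines. The SK-N-AS call rests on few counts and was lost in 5 of 15 alternatives, with adjusted p between 2.31e-07 and 0.318, among them the fits without DMSO replicate 2, Erastin replicate 1 or Erastin replicate 2 of SK-N-AS.

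As counted, no assembly factor of complexes I to V was called with Erastin in either line (0 of 55 in each). Nor was any of 13 regulators of mitochondrial biogenesis or of 77 mitochondrial ribosomal proteins. With the GC offset in SK-N-AS, 5 mitochondrial ribosomal proteins, 1 complex I and 1 complex IV assembly factor were called lower. In that fit 6.75% of all genes were called in either direction. Of the 13 mitochondrially encoded subunits 0 were called in either line. In SK-N-AS their median was 0.22 and 10 of 13 were positive. With the GC offset 6 were called higher and 2 lower, beside the same 6.75% of all genes. Among them were MT-ND5 at 0.28 and MT-CO3 at -0.31 with the offset, so that genes transcribed from the same DNA went in both directions. In KELLY 3 of 13 were positive and 0 were called with the offset.

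The second comparison asked how the control level of each subunit differs between the lines, in the 6 DMSO samples. The lines differed in many subunits but not in one direction. In KELLY 21 of 75 members were higher and 12 lower at an adjusted p under 0.05, beside 30.9% and 30.3% of all 17071 genes. The share of members called higher was near that of all genes and the share called lower was smaller, a difference that was not tested. Their median log2 difference was 0.19 (all genes 0.02), and the median size of the difference, whichever its sign, was 0.48 for members and 0.82 for all genes. With the GC offset 30 were higher and 21 lower, beside 37.4% and 36.9% of all genes. The offset is centred on the mean of each line, so it cannot remove a GC trend that differs between the lines. Spearman's rho between the members' differences and GC content was -0.19 as counted and -0.22 with the offset. The typical standard error of a member was 0.17 as counted and 0.12 with the offset. Of the 33 called members, 20 stayed called in the same direction in all 17 alternatives, 10 higher and 10 lower in KELLY. Leaving out 1 library at a time gave between 20 and 46 called members, with 20 without SK-N-AS DMSO replicate 1, 21 without SK-N-AS DMSO replicate 2 and 21 without KELLY DMSO replicate 3. The 46 (31 higher, 15 lower) came from leaving out KELLY DMSO replicate 1, the library with the strong GC trend and the hemoglobin reads. The balance of higher and lower calls was not stable, since 10 were higher and 13 lower with the replicate number as a block, 16 and 17 with no filter on low counts and 18 and 19 without KELLY DMSO replicate 2.

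In complex I 10 of 37 members were higher in KELLY and 4 lower, beside 30.9% and 30.3% of all genes. NDUFA6 (chromosome 22, 42085526 to 42090884 in GRCh38), an accessory subunit of the LYR family that holds the acyl carrier protein NDUFAB1, had the largest difference. It read 59.4, 67.3 and 59.4 CPM in KELLY and 13.9, 17.1 and 16.2 CPM in SK-N-AS, so that each KELLY sample was over 3 times each SK-N-AS sample. The log2 difference was 1.99 (SE 0.15, adjusted p = 6.85e-06). NDUFA9, an accessory subunit near the ubiquinone site, read 37.1, 37.5 and 36.9 CPM against 15.2, 15.4 and 16.2 CPM, a log2 difference of 1.27 (SE 0.14, adjusted p = 6.08e-05). NDUFA4, the subunit now placed in complex IV, was higher by 1.01. Of the core subunits NDUFS1 was higher by 0.61 (adjusted p = 0.00798) and NDUFV1 by 0.52 (adjusted p = 0.0411). The call on NDUFV1 was lost in 8 of 17 alternatives, among them 5 of the 6 that leave out 1 library.

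The complex I members lower in KELLY were NDUFA13, NDUFA7, NDUFC1 and NDUFB9. NDUFC1, a small accessory subunit, read 19.6, 18.9 and 18.2 CPM in KELLY and 38.6, 41.6 and 38.2 CPM in SK-N-AS, a log2 difference of -1.05 (SE 0.14, adjusted p = 0.000208) with no overlap. NDUFA13, also known as GRIM-19, had the largest negative difference (-1.83, SE 0.46, adjusted p = 0.00784), on levels of 0.428, 1.46 and 0.63 CPM in KELLY and 3.98, 1.99 and 3.01 CPM in SK-N-AS. NDUFA7 differed by -1.47 (adjusted p = 0.0135) on 7 to 12 counts in KELLY and 18 to 34 in SK-N-AS. These last 2 are the genes whose exons lie largely under other annotated genes, and the call on NDUFA7 was lost without SK-N-AS DMSO replicate 1 and without KELLY DMSO replicate 3 (adjusted p up to 0.0648).

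None of the 4 subunits of complex II was called, beside 30.9% of all genes called higher in KELLY and 30.3% lower. SDHA, the catalytic flavoprotein, differed by 0.38 (95% interval -0.07 to 0.83, adjusted p = 0.122) and SDHC by -0.23 (adjusted p = 0.131). SDHB read 59.1, 76.6 and 69.1 CPM in KELLY and 61.2, 78.6 and 69.1 CPM in SK-N-AS, a log2 difference of -0.02 (-0.37 to 0.34). With the GC offset SDHA (0.37), SDHC (-0.23) and SDHD (-0.36) had adjusted p of 0.0054, 0.0117 and 0.0039. The SDHA value is uncertain because of the exon overlap and pseudogenes given above.

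Complex III had 5 of 8 members higher in KELLY and 1 lower, beside 30.9% and 30.3% of all genes. UQCRC1 (chromosome 3, 48599002 to 48610976), a core protein of the matrix side, read 255, 319 and 262 CPM in KELLY and 105, 102 and 85.0 CPM in SK-N-AS, with no overlap and a log2 difference of 1.54 (SE 0.15, adjusted p = 2.93e-05). Its partner UQCRC2 differed by 0.36 (adjusted p = 0.0234). UQCR10, a small accessory subunit, was higher by 1.14 (SE 0.17, adjusted p = 0.000367), at 54.3, 78.0 and 62.5 CPM against 29.1, 31.2 and 28.9 CPM. The Rieske protein UQCRFS1 was higher by 0.38 and UQCRB by 0.49. The calls on UQCRC2, UQCRFS1 and UQCRB were lost in 6 or 7 of 17 alternatives each, with adjusted p up to 0.13. In the other direction UQCRQ, a small subunit that contacts cytochrome b, read 68.1, 71.0 and 61.0 CPM in KELLY and 118, 147 and 127 CPM in SK-N-AS, a log2 difference of -0.96 (SE 0.14, adjusted p = 0.00039).

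In complex IV 1 of 9 tested members was higher in KELLY and 1 lower, beside 30.9% and 30.3% of all genes. COX7B was higher in KELLY by 0.50 (SE 0.15, adjusted p = 0.0156), at 48.8, 61.8 and 54.5 CPM against 37.3, 38.8 and 41.7 CPM. COX5B was lower by 1.15 on the log2 scale (log2 difference -1.15, SE 0.38, adjusted p = 0.0267), at 12.1, 40.4 and 23.8 CPM against 62, 64.3 and 44 CPM. Both calls were lost without SK-N-AS DMSO replicate 1, without SK-N-AS DMSO replicate 2 and without KELLY DMSO replicate 3 (adjusted p up to 0.0758 for COX7B and 0.0849 for COX5B). The COX7B call was lost with the replicate block as well. COX5A differed by 0.34 (95% interval -0.04 to 0.72, adjusted p = 0.104). The isoform genes COX6A1 (-0.58), COX6B1 (-0.61), COX7A2 (-0.31) and COX8A (0.28) did not pass the threshold. With the GC offset COX6A1 (-0.61, adjusted p = 0.0193) and COX7A2 (-0.31, adjusted p = 0.0212) were called. That made 1 higher and 3 lower in this complex, beside 37.4% and 36.9% of all genes.

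ATP synthase had members called in both directions in each of its stalks. In the catalytic head ATP5F1B was higher in KELLY by 0.53 (SE 0.11, adjusted p = 0.00245) at 1233, 1342 and 1230 CPM against 873, 928 and 853 CPM. Its partner ATP5F1A did not differ detectably (-0.01, 95% interval -0.27 to 0.25). In the central stalk ATP5F1E was higher by 1.05 and ATP5F1D lower, with a log2 difference of -1.08 (adjusted p = 0.000462) and ranges of 54.9 to 79.95 CPM in KELLY and 134 to 155 CPM in SK-N-AS.

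The peripheral stalk split likewise. ATP5PB (chromosome 1, 111448864 to 111462773), its b subunit, read 406, 333 and 347 CPM in KELLY and 123, 149 and 152 CPM in SK-N-AS, a log2 difference of 1.37 (SE 0.14, adjusted p = 4.73e-05). ATP5PD and ATP5PF, the d and F6 subunits, were lower, with log2 differences of -0.90 (adjusted p = 0.000378) and -0.63 (adjusted p = 0.00483). ATP5PO, the OSCP subunit, differed by 0.74 (adjusted p = 0.0303), a call lost with the replicate block and without either of the first 2 SK-N-AS DMSO replicates. Of the 3 genes that encode the same c-ring protein ATP5MC1 was higher by 1.12 (SE 0.25, adjusted p = 0.00419), whereas ATP5MC2 differed by 0.13 and ATP5MC3 by 0.33 without passing.

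The small supernumerary subunits of the membrane part were lower where they were called. ATP5MD (also named ATP5MK) read 65.2, 48.7 and 49.7 CPM in KELLY and 91.6, 121 and 141 CPM in SK-N-AS, a log2 difference of -1.10 (SE 0.20, adjusted p = 0.00123) with no overlap. ATP5ME differed by -1.198 (SE 0.26, adjusted p = 0.00348) on levels of 2.41 to 4.63 CPM against 7.97 to 9.28 CPM. Another gene lies over 39.6% of its exons, on the opposite strand. ATP5MPL (ATP5MJ) differed by -0.86 (adjusted p = 0.00143). ATP5MF (0.01) and ATP5MG (0.43) did not pass.

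**Figure D4:**
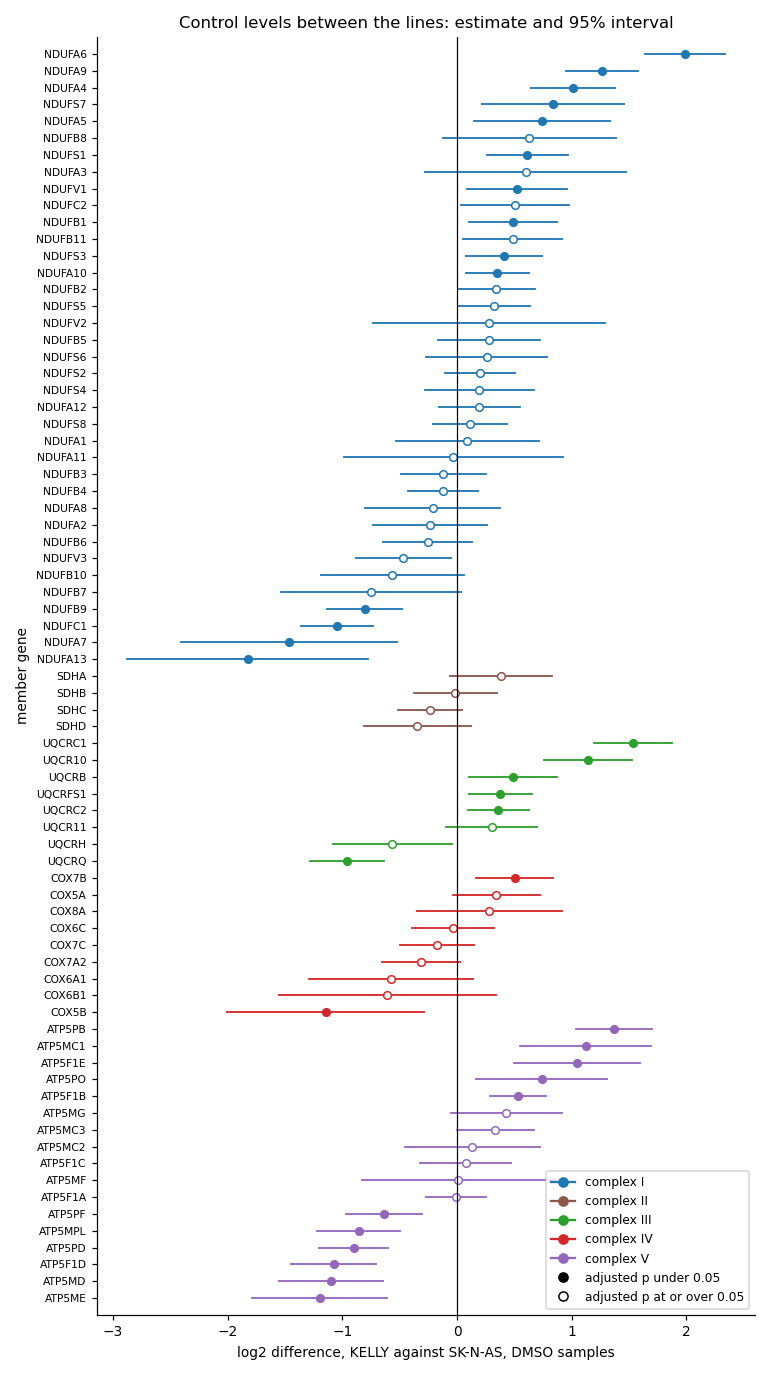
Log2 difference of KELLY against SK-N-AS in DMSO samples (x axis) for the 75 members tested (y axis, by complex and size), with points for the estimate, lines for the 95% interval and filled points for an adjusted p under 0.05. Filled points lie on both sides of 0 in complexes I, III, IV and V, from -1.83 for NDUFA13 to 1.99 for NDUFA6, and complex II has none.

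Values in the Erastin samples, which the control comparison did not use, are given for a few of the called members. NDUFA6 read 72.5, 60.2 and 55.1 CPM in KELLY and 14.9, 14.2 and 15.6 CPM in SK-N-AS with Erastin. UQCRC1 read 300.2, 246 and 263 CPM against 84.9, 94.8 and 85.3 CPM. NDUFC1 read 20.4, 18.2 and 18.6 CPM against 38.1, 41.2 and 39.6 CPM, and UQCRQ 68.4, 55.2 and 55.4 CPM against 127, 130 and 134 CPM. These 4 were picked from the members called in DMSO. In DMSO samples 22 of 75 members lay wholly higher in KELLY and 15 wholly lower, beside 5609 and 5717 of 17071 genes. Such a count was not made for the Erastin samples. In none of the 4 did the lines overlap with Erastin, but in others they did. NDUFA5, called higher in KELLY by 0.74, read 67.7, 146 and 132 CPM in KELLY and 87.5, 78.8 and 92.3 CPM in SK-N-AS with Erastin (named after its values were seen). COX5B was the 1 of the 8 plotted genes whose lines overlapped, with 60.4 CPM in KELLY Erastin replicate 1 above the 43.5 to 53.1 CPM of SK-N-AS.

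**Figure D5:**
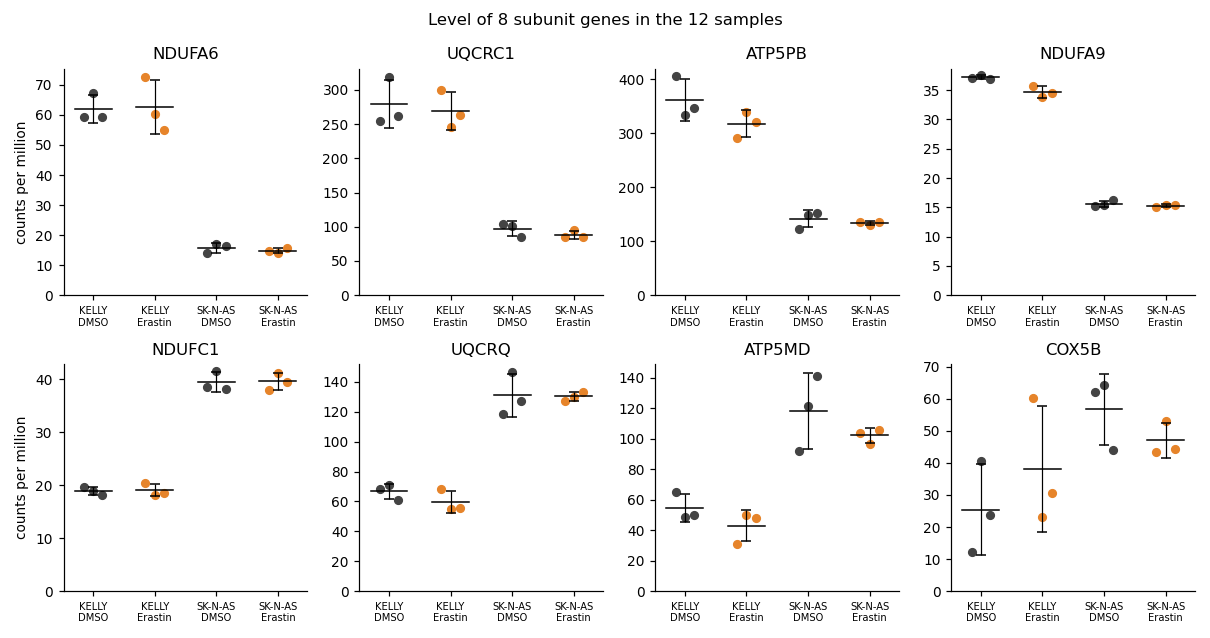
CPM (y axis, from 0) of 8 members in the 12 samples, grouped by line and treatment (x axis), with points for samples, grey for DMSO, orange for Erastin, and lines for mean and SD (n = 3). NDUFA6, UQCRC1, ATP5PB and NDUFA9 are higher in KELLY, NDUFC1, UQCRQ and ATP5MD lower, and COX5B spreads widely in KELLY.

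Read back against the promoter letters, the members called lower in KELLY held the ETS letters in 6 of the 8 promoters that were matched (ATP5MD, ATP5ME, ATP5PD, COX5B, NDUFA13 and UQCRQ). The members called higher held them in 1 of 16 (NDUFS3), and those not called in 10 of 30, beside 12.8% of protein-coding windows. The YY1 letters were in 4 of the 16 higher members (NDUFA6, NDUFA9, NDUFS7 and UQCRC1), in 1 of the 8 lower and in 2 of the 30 not called. The NRF1 letters were in 1, 1 and 6. These counts are small and were looked at after the calls, and they are given as a description with no test.

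Genes that work with the members were read in the same control comparison. CYCS, cytochrome c itself, was higher in KELLY by 1.25 (SE 0.20, adjusted p = 0.000698) at 536, 347 and 359 CPM against 148, 171 and 207 CPM. COX4I1, the general form of COX4, was higher by 0.91, and COX4I2, the form linked to lung and low oxygen, had 19, 44 and 34 counts in KELLY and none in SK-N-AS, which is at least 32.3-fold higher when set against 3 counts over the 3 SK-N-AS libraries. CYC1 and NDUFAB1 were not called (-0.14 and -0.19).

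Among the 55 assembly factors tested 18 were higher and 5 lower in KELLY, to be read against 30.9% and 30.3% of all genes. The largest was COX17, the copper chaperone of complex IV, with 39.2, 41.5 and 34.7 CPM in KELLY and 3.13, 3.06 and 3.57 CPM in SK-N-AS (log2 difference 3.57, SE 0.17, adjusted p = 4.83e-07). TTC19 of complex III was higher by 1.94, ATPAF2 of complex V by 1.87 and DMAC1 of complex I by 1.81. Of the 13 regulators of mitochondrial biogenesis 4 were higher and 2 lower. The coactivator PPARGC1A was higher in KELLY by 3.59 (SE 0.30, adjusted p = 1.1e-05) at 16.6, 9.67 and 14.7 CPM against 0.81, 1.23 and 1.39 CPM, and its relative PPARGC1B by 1.09. YY1 was lower, with a log2 difference of -1.05 (adjusted p = 9.41e-05). Mitochondrially encoded subunits were called in both directions, 2 higher and 4 lower, with MT-ND1 at 0.68 and MT-ND3 at -1.13. Of 78 mitochondrial ribosomal proteins 13 were higher in KELLY and 20 lower.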

How the data were processed

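RNA-seq of 12 samples (2 cell lines, DMSO or Erastin, 3 wells each) was analysed from the counts the authors deposited, raw whole-number reads per gene made with HTSeq 2.0.3 on GRCh38 with GENCODE release 29, after trimming with Trimmomatic, per the study's methods and the submitters' processing notes. The aligner is not given in the sources used here. Rows that repeat a gene name (1568) were summed for CPM, the control comparison and the interaction, and kept apart in the fits within each line. Each comparison was fitted in R 4.3.3 with the quasi-likelihood test of edgeR 4.0.16 after filterByExpr and TMM, with Benjamini-Hochberg adjustment over all genes tested and calls at an adjusted p under 0.05. The treatment was tested within each line, the lines in DMSO samples, and the interaction over all 12 samples. CPM used TMM factors over the 12 samples, and log2 CPM a prior of 0.5. Lengths and GC content came from GENCODE 44 canonical transcripts. The GC offset was a loess curve (span 0.5, degree 2) through GC content of the log2 deviation of a library from the average library of its line, fitted on genes with a mean count of at least 10. DESeq2 1.42.0, limma 3.58.1 (voom), library size alone, no filter, a replicate block, 1 fit of all samples and leaving out each library were alternatives. The fits were also run on simulated data with less spread between samples than these libraries and no GC trend. That check does not measure power at the real spread. Totals of 24169796 to 29835670 counts put 3 counts at 0.102 to 0.123 CPM, and intervals and floors cover these libraries only.

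Genes named with values were, per complex and direction, up to 2 members with the largest called difference, or else the member with the smallest p. Core subunits, isoform pairs, the 5 smallest p of the interaction and up to 4 genes of each accompanying list were added. For complex IV the accessory subunits COX5A and COX5B were listed with the core subunits. Some others are said to be named after their values were seen, or illustrate the overlap, level and promoter results. Further members were named outside this rule with their values known, without a remark where they appear. In the control comparison these include NDUFA4, NDUFC1 (also plotted), UQCRC2, UQCRB, ATP5F1D, ATP5F1E, ATP5PD, ATP5PF, ATP5PO and ATP5MPL. The members and lists were chosen with earlier results of these data known. Columns left unused numbered 0.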

Additional observations from a re-analysis of the deposited data

How the results depend on the processing

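With Erastin, 0 members were called in all 17 alternatives in KELLY and in all 22 for the interaction, leaving out each library included (0 to 0 called), and in 15 of 17 in SK-N-AS. The exceptions in SK-N-AS were the fit with the replicate block and GC offset, with 2 members (ATP5MC3 and COX5B, beside 11.2% of all genes), and leaving out 1 library, with 0 to 2 (2 without DMSO replicate 3, beside 5.2%). Between the lines in DMSO, 33 members were called (21 higher in KELLY, 12 lower), beside 61.3% of all genes. The GC offset gave 51 (21 lower), and the replicate block with GC offset 51 (22 lower), beside 74.3% and 71.6%. Leaving out 1 library gave 20 to 46 in all, 10 to 31 higher and 10 to 19 lower, beside 50.3% to 66.6%. The replicate block alone gave 10 higher and 13 lower, and no filter on low counts 16 higher and 17 lower, beside 52.9% and 38.2%, so that the share of calls that were higher went from 63.6% to 43.5% and 48.5%. No named value that had been called changed sign. Why these counts moved was not tested. No label says that the replicate numbers pair the samples, and same-numbered samples had correlations of their deviations between -0.86 and 0.48. These deviations include the GC trends of the libraries, so the correlations cannot show whether same-numbered samples were handled together. The block alone left 0 members called with Erastin, while over all genes it moved the calls from 106 to 308 in SK-N-AS and from 1 to 0 in KELLY. Leaving out both KELLY libraries numbered 1 was chosen after seeing the data. At this depth and with 3 wells per group, 34 of 74 intervals in KELLY and 72 of 75 in SK-N-AS lay within a 1.5-fold change.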
